A study of Mus musculus with 75 samples.

Results

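Of the 1745 chromatin stripes listed for late G1, 253 (14.5%, 12.9 to 16.2) had an anchor that was already the anchor of a stripe in ana/telophase, and these 253 stripes are described here. A stripe is a line in a contact map: a narrow anchor contacts a long, continuous stretch of chromosome, the body. In a horizontal stripe the body lies downstream of the anchor, and in a vertical stripe it lies upstream. The stripes were selected on the stripe lists themselves, that is, on measured contacts: a late-G1 stripe was kept where its anchor overlapped, by at least 1 bp, the anchor of an ana/telophase stripe of the same direction. These stripes are called early-anchored below, and the remaining 1492 late-G1 stripes are called the other stripes. The early-anchored stripes comprised 122 horizontal and 131 vertical stripes.

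All groups were mouse G1E-ER4 cells, a single GATA1-null erythroid precursor line that carries an inducible GATA1 and was left uninduced in all samples used. Nocodazole at 200 ng/ml, applied for 7 to 8.5 h, arrested the cells, which were then released and flow-sorted as pro-metaphase (0 min), ana/telophase (25 min), early G1 (60 min), mid G1 (120 min) and late G1 (240 min). In situ Hi-C, which maps contacts across the genome, had 2 samples per stage, from 5000000 cells in both mitotic stages and from 10000000 in each of the 3 G1 stages. ChIP-seq for CTCF had 3 samples in pro-metaphase and 2 in every other group, ChIP-seq for the cohesin subunit Rad21 had 2 per group, and both included asynchronous cells.

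Cohesin is a ring complex that draws chromatin into growing loops, and CTCF is the DNA-binding protein at which this extrusion commonly halts. Where cohesin is held at a CTCF site on 1 side while it continues to reel in chromatin on the other, a stripe is the contact pattern expected from the extrusion model. CTCF sites that face each other give loops, seen as focal contacts, and sites that block extrusion often lie at the boundaries of domains, the blocks within which contacts are frequent. In mitosis cohesin and most of this folding are lost from chromosome arms and are rebuilt as cells enter G1.

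Replicates were pooled before the lists were made, 1 list per stage. There is therefore no spread between replicates, no comparison below has a replicate test, and read depth per sample is unknown. Ranges in parentheses are 95% intervals (exact binomial for shares, Newcombe for differences between shares, order statistics for medians) and cover counting error only. The stripe lists of the 5 stages held, in order, 39, 307, 1753, 1754 and 1745 stripes. The median observed contact sum per stripe was 162 in ana/telophase and 679 in late G1. Stage, cell number per Hi-C sample and contact sums move together, so their parts in the number, length and strength of called stripes cannot be told apart. Positions are those of mouse build mm9, counted from 1.

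The anchors seen in ana/telophase mostly persisted. Of the 307 ana/telophase stripes, 253 (82.4%, 77.7 to 86.5) had a late-G1 partner, and the match was 1 to 1. In 74 pairs the anchors had the same start and end. All lists use bins of 10 kb, and the shared part of the anchors was 10 kb in 220 pairs, 20 kb in 24, 30 kb in 6 and 40 kb in 3. Just outside the rule, 17 other stripes had an anchor that touched an ana/telophase anchor without overlapping it, 7 lay 10 kb away and 7 lay 20 kb away. Of the other stripes, 1388 had an anchor first listed in early G1, 61 had one first listed in mid G1, and 33 had an anchor listed in late G1 alone. Early-anchored stripes were found again in early G1 in 234 cases and in mid G1 in 237 cases, and 224 were present in all 4 lists from ana/telophase on. They lay on 19 chromosomes, with 43 (17.0%) on chromosome 1, which held 166 (11.1%) of the other stripes. None was on the X chromosome, where 16 of the other stripes lay.

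Ana/telophase anchors with a late-G1 partner, called lasting here, carried cohesin more often than those without one. Having no partner means that no late-G1 anchor of the same direction overlapped. It does not mean that no stripe lay nearby: 17 other late-G1 stripes touched an ana/telophase anchor without overlapping it. How many of the 54 stripes without a partner have such a neighbour was not counted. At the ana/telophase anchors themselves, which were 10 kb wide in the median in both sets, an ana/telophase Rad21 peak was present in 120 of the 253 stripes with a late-G1 partner (47.4%, 41.1 to 53.8). It was present in 7 of the 54 stripes without one (13.0%, 5.37 to 24.9), a difference of 34.5 percentage points (21.5 to 43.4). With these anchors widened by 10 kb the shares were 70.0% and 40.7%, a difference of 29.2 points (14.7 to 42.4). The late-G1 Rad21 list showed the same order, with 63.6% against 31.5% (difference 32.2 points, 17.6 to 44.4). For CTCF, the ana/telophase list covered 74.3% of the lasting anchors against 57.4% of those without a partner (difference 16.9 points, 3.37 to 31.1). The pro-metaphase CTCF list covered 46.2% against 25.9% (difference 20.3 points, 5.98 to 31.9). The stripes of the 2 sets had similar lengths in ana/telophase, with medians of 220 kb (200 to 230) and 215 kb (170 to 240). The stripes without a late-G1 partner had a median strength of 3.01 (2.78 to 3.18) and the lasting ones of 2.75 (2.67 to 2.83), where strength is the authors' ratio of observed to expected contacts in the body. Of the 54, 35 (64.8%) were still listed in early G1 and 27 (50.0%) in mid G1, against 88.9% and 91.3% of the lasting ones. A pro-metaphase anchor was listed for 5.14% of the lasting stripes and 13.0% of the 54, a difference of -7.825 points (-19.5 to -0.430).

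CTCF was listed at most early-anchored late-G1 anchors as soon as the stripe was, and Rad21 at fewer. The anchors measured from here on are those of the late-G1 list, which are wider than the ana/telophase ones (median 20 kb against 10 kb). A pro-metaphase CTCF peak lay in 163 of the 253 anchors (64.4%, 58.2 to 70.3) and an ana/telophase one in 230 (90.9%, 86.7 to 94.2). The early, mid and late G1 lists each covered 231 anchors (91.3%, 87.1 to 94.5), and the asynchronous list covered 232 (91.7%). The share of these anchors with a listed CTCF peak was thus close to its G1 value in ana/telophase. The height of the peaks was not compared between stages. Rad21 was listed at 37 anchors in pro-metaphase (14.6%, 10.5 to 19.6) and at 173 by ana/telophase (68.4%, 62.3 to 74.1). Its share then rose to 75.5% (191 anchors), 83.0% (210) and 84.2% (213, 79.1 to 88.5) over early, mid and late G1, and it was 79.1% (200) with asynchronous cells. The Rad21 lists lengthened over the same stages, from 7995 peaks in ana/telophase to 8694, 15762 and 18958. When only the strongest late-G1 peaks were kept, as many as in ana/telophase, the late-G1 share was 74.7%. For comparison, a late-G1 CTCF peak lay in 10.9% of all bins of 10 kb along the chromosomes, a late-G1 Rad21 peak in 6.64%, and an ana/telophase Rad21 peak in 2.95%.

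**Figure D1:**
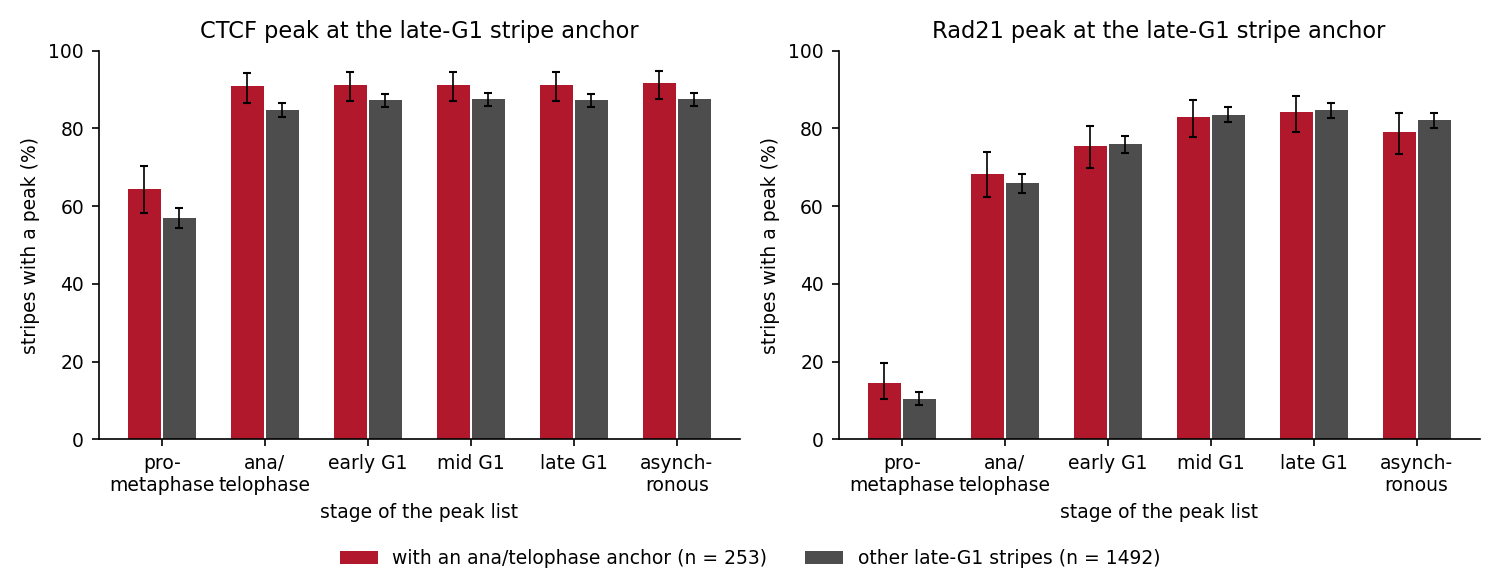
Share of late-G1 stripe anchors (y axis, percent) that held a CTCF peak (left) or a Rad21 peak (right) in the peak list of each stage (x axis), for 253 early-anchored stripes (red) and 1492 other stripes (grey). Bars are shares and whiskers exact 95% binomial intervals; red exceeds grey for CTCF in pro-metaphase (64.4% against 57.0%) and ana/telophase (90.9% against 84.8%), while the Rad21 bars from ana/telophase on differ by less than their intervals.

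Set against the other stripes, the early-anchored ones differed slightly in CTCF in the mitotic lists. A Rad21 difference was not detectable from ana/telophase on, and in pro-metaphase its interval only just excluded 0. Among the other stripes the CTCF shares of the 5 stages, in order, were 57.0%, 84.8%, 87.2%, 87.5% and 87.3%, with 87.5% for asynchronous cells. Early-anchored stripes exceeded them by 7.46 points in pro-metaphase (0.891 to 13.6) and by 6.12 points in ana/telophase (1.60 to 9.64). In late G1 the difference was 3.97 points (-0.444 to 7.36), an interval that includes 0. Their Rad21 shares, in the same order, were 10.5%, 66.0%, 75.9%, 83.6% and 84.7%, with 82.2% for asynchronous cells. The Rad21 difference was 4.17 points in pro-metaphase (0.0013 to 9.26), 2.43 points in ana/telophase (-3.99 to 8.37) and -0.46 points in late G1 (-5.76 to 3.96). Without chromosome 1 the pro-metaphase Rad21 shares were 11.9% and 9.80%, and the interval of their difference (-1.99 to 7.39 points) includes 0. The interval also includes 0 among horizontal stripes alone (-0.966 to 12.7) and among vertical stripes alone (-1.94 to 10.7). The part of chromosome 1 in this difference was not tested. Most anchors of the other stripes thus held CTCF and Rad21 in ana/telophase, at a stage when no stripe of their direction was listed at the anchor. The CTCF difference in ana/telophase was 11.3 points among horizontal stripes (5.67 to 15.0) and 1.24 points among vertical stripes (-6.10 to 6.83). Whether the directions differ was not tested.

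Anchor width moved with these shares. Anchors of 10 kb made up 24.9% of the early-anchored stripes and 38.2% of the others, and anchors of at least 40 kb made up 26.1% and 15.4%. Averaged within classes of anchor width, the CTCF difference was 4.25 points in pro-metaphase and 3.07 points in ana/telophase, and the Rad21 difference in ana/telophase was -1.05 points. The pro-metaphase CTCF difference changed sign with width. It was -5.05 points at 10 kb (-16.9 to 7.93) and -2.21 at 20 kb (-14.0 to 8.85). At 30 kb it was 16.4 points (1.23 to 27.5), and at 40 kb or more 12.9 (0.80 to 22.3). In ana/telophase the interval of the CTCF difference included 0 in every width class. Within the 10 kb anchors, Rad21 in ana/telophase was at 39.7% of early-anchored and 52.8% of other stripes (difference -13.1 points, -25.0 to -0.123). Within the 30 kb anchors the order was the opposite, 93.2% against 76.0% (difference 17.2 points, 4.83 to 24.4). These classes hold 63 and 44 early-anchored stripes. Early-anchored stripes also held 2 or more late-G1 CTCF peaks more often, 56.1% against 47.1%. Per 10 kb of anchor the number of late-G1 CTCF peaks was 0.814 and 0.764, and that of Rad21 peaks 0.606 and 0.622.

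The peaks at early anchors ranked high in their own lists. The fold enrichment of a peak is the authors' own value, and it was used only to rank peaks within 1 list. In ana/telophase, the strongest CTCF peak at an early-anchored stripe had a median percentile of 85.2 (quartiles 60.9 and 94.1), against 78.5 (59.0 and 92.2) at the other stripes. It fell in the top 10% of the list in 42.2% of the early-anchored stripes that had a peak and in 30.1% of the others. For Rad21 in ana/telophase the median percentiles were 79.9 and 73.2, and the shares in the top 10% were 34.7% and 23.1%. By late G1 the Rad21 percentiles were close, 87.3 and 85.7. Wider anchors hold more peaks, so the strongest of them ranks higher; the part of width in this difference was not tested.

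CTCF was usually listed before Rad21, at early anchors and at the others alike. The CTCF lists were much longer than the Rad21 lists, with 11604 against 596 peaks in pro-metaphase and 33127 against 7995 in ana/telophase, and the part of list length in this order was not tested. Both proteins were found at some stage in 214 of the 253 anchors. CTCF was listed at an earlier stage than Rad21 in 151 of them (70.6%, 64.0 to 76.6), at the same stage in 59 and at a later stage in 4. Among the other stripes CTCF came first in 67.1% (64.4 to 69.7). Every one of the 163 early-anchored stripes with CTCF in pro-metaphase had CTCF in all 6 lists, and so did every one of the 850 other stripes with it. In late G1, 18 early-anchored stripes (7.11%, 4.27 to 11.0) had CTCF without Rad21, against 3.15% (2.32 to 4.17) of the others, while none of the 253 had Rad21 without CTCF. Neither protein was listed in late G1 at 22 early anchors (8.70%, 5.53 to 12.9) and at 12.2% of the others.

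From ana/telophase to late G1 the stripes became longer, and most of the lengthening was in place by early G1. Lengths and strengths in both stages come from the lists that chose the stripes, so they are described without a test. Over the 253 pairs the median body length was 220 kb in ana/telophase and 330 kb in late G1, with a median change of 80 kb (60 to 100). The body was longer in 197 pairs (77.9%), equal in 10 and shorter in 46. Strength was higher in 175 pairs (69.2%), and its median change was 0.31 (0.24 to 0.39). Both ends of the body shifted relative to the anchor, with distances taken from the body-facing edge of each stage's own anchor. The tip lay farther from the anchor in 169 pairs, by 40 kb in the median over all pairs. The near end lay closer to the anchor in 182 pairs, by 20 kb in the median. The anchor itself was wider in late G1 in 165 pairs, by 10 kb in the median over all pairs. The part of this widening in the shift of the ends was not tested. The tip moved out and the near end moved in for 123 pairs, only the tip moved out for 46, only the near end moved in for 59, and neither occurred for 25. The late-G1 body overlapped the ana/telophase body in 251 pairs and contained all of it in 168.

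**Figure D2:**
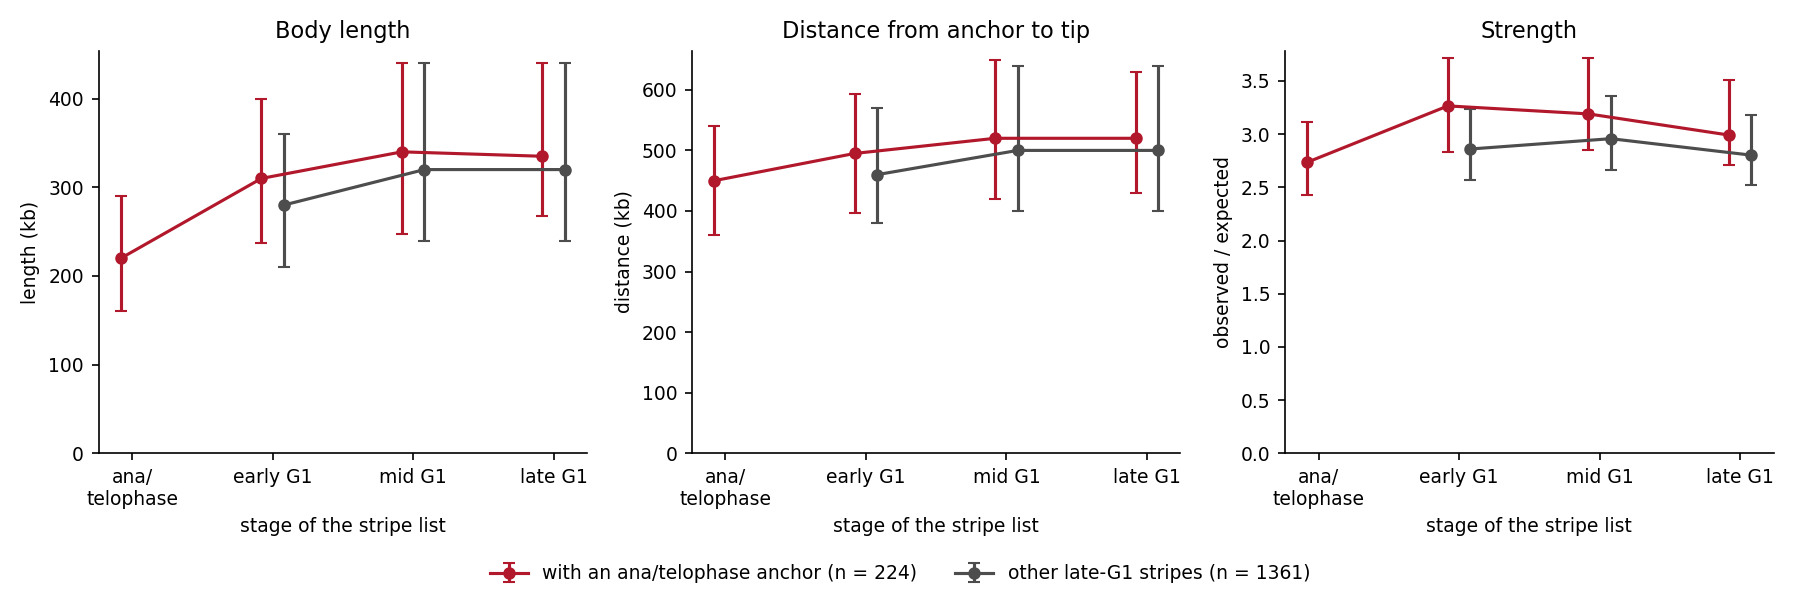
Body length, distance from anchor to tip and strength (y axes: kb, kb, and the ratio of observed to expected contacts) by stage (x axis) for the 224 early-anchored stripes present in all 4 later lists (red) and the 1361 other stripes present in early, mid and late G1 (grey). Points are medians and whiskers quartiles; red length rises from 220 kb to 310 kb between ana/telophase and early G1 and then stays between 310 and 340 kb, and red strength peaks in early G1 at 3.27.

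Among the 224 early-anchored stripes present in all 4 later lists, the median body length over these stages, in order, was 220 kb (200 to 230), 310 kb (280 to 330), 340 kb (310 to 370) and 335 kb (310 to 360). The distance from anchor to tip went from 450 kb (420 to 470) to 495 kb, 520 kb and 520 kb (500 to 550). The median strengths were 2.74 (2.66 to 2.83), 3.27 (3.11 to 3.36), 3.19 and 2.99 (2.91 to 3.07). Length therefore levelled off while strength was highest in early G1.

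The step from early to late G1 did not use the ana/telophase list, although the late-G1 list also served to choose the stripes. In this step the early-anchored stripes changed less in length than the other stripes. Of the 234 early-anchored stripes with an early-G1 partner, 55.6% were longer in late G1, with a median change of 10 kb (0 to 20). Of the other stripes, 60.0% were longer, with a median change of 30 kb (20 to 30). Strength was higher in late G1 than in early G1 for 32.5% of the early-anchored stripes, with a median change of -0.18 (-0.24 to -0.13), against 44.0% of the other stripes and -0.05 (-0.08 to -0.03). The part of the starting values in these changes was not tested. In early G1 the early-anchored stripes had started from a greater length, a median of 310 kb against 270 kb. They had also started from a higher strength, a median of 3.26 against 2.86. In late G1 their median strength was 2.98 (2.91 to 3.06), against 2.79 (2.76 to 2.81) for the other stripes, and their median body length was 330 kb (300 to 350) against 310 kb (300 to 320).

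Single stripes show how the bodies moved. The longest late-G1 body among them belonged to a horizontal stripe with its anchor on chromosome 5 from 64770001 to 64800000. From ana/telophase to late G1 it measured 330, 440, 740 and 800 kb, with strengths of 2.62, 2.95, 2.99 and 2.42. Its tip moved from 470 kb to 900 kb from the anchor. Its anchor had 1 CTCF peak in every list and 1 Rad21 peak in every list from ana/telophase on. A vertical stripe on chromosome 3 with its anchor from 79610001 to 79620000 grew by the same pattern of an outward moving tip. Its body was 180, 470, 690 and 710 kb long in the 4 later stages, and its tip lay 310, 580, 840 and 850 kb from the anchor.

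Other gains came from the near end. The largest gain in length was that of a horizontal stripe on chromosome 13 with its anchor from 119170001 to 119210000, which measured 140 kb in ana/telophase and 880, 870 and 770 kb in the 3 G1 stages. Its tip was already 1000 kb from the anchor in ana/telophase and 1040 kb in late G1, so the gain lay between the anchor and the ana/telophase body. A vertical stripe on chromosome 12 with its anchor from 81200001 to 81260000 did likewise: 140 kb in ana/telophase, 720 kb in late G1, and a tip at 850 and 860 kb. This anchor held 9 CTCF and 4 Rad21 peaks in late G1.

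The 46 stripes that were shorter in late G1 include some with large losses. The largest loss was that of a vertical stripe on chromosome 11 with its anchor from 116610001 to 116620000. Its body measured 1530, 840, 140, 240 and 330 kb in the 5 stages. No CTCF or Rad21 peak, no loop to the body and no boundary was listed at this anchor at any stage, although a late-G1 CTCF peak lay within 10 kb of it. A horizontal stripe from an overlapping anchor, 116600001 to 116620000, ran the other way and measured 1280, 860, 380, 800 and 710 kb in the 5 stages. It had 1 CTCF peak in every list and no Rad21 peak. A horizontal stripe on chromosome 3 with its anchor from 94250001 to 94270000 shortened from 750 kb in ana/telophase to 320 kb in late G1 although its anchor held CTCF in every list and Rad21 from ana/telophase on.

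**Figure D3:**
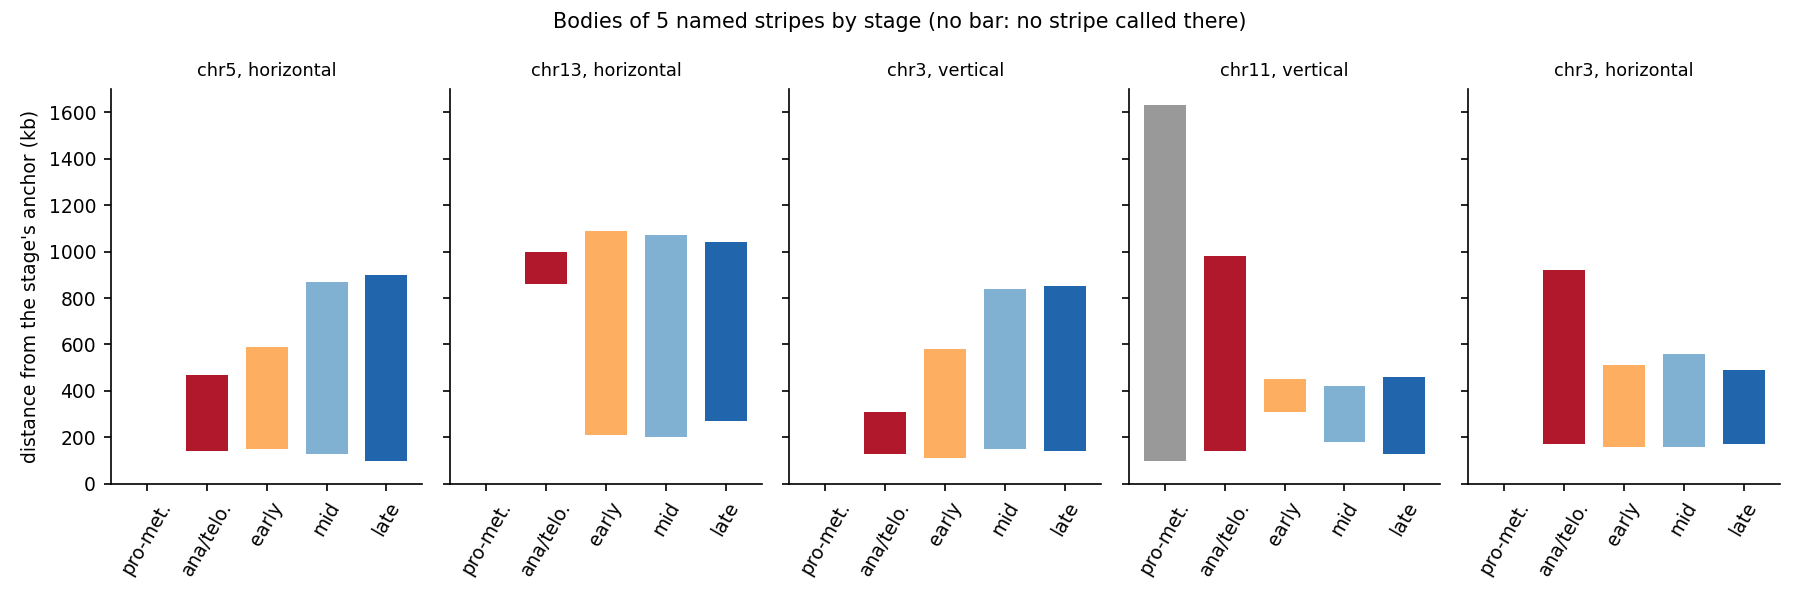
Bodies of 5 named stripes in each stage (x axis), drawn as bars from the near end to the tip on a scale of distance from that stage's anchor (y axis, kb); a stage without a bar has no stripe at the anchor. In the chromosome 5 and vertical chromosome 3 stripes the tip moves outward, in the chromosome 13 stripe the near end moves inward, and the chromosome 11 and horizontal chromosome 3 stripes shorten.

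The median lengthening was larger at anchors with cohesin, although the share of stripes that lengthened did not follow the same order. The 173 stripes with Rad21 at the anchor in ana/telophase went from a median of 220 kb to 350 kb, with a median change of 100 kb, and 80.9% were longer in late G1. The 40 stripes whose anchor was listed with Rad21 in late G1 but not in ana/telophase went from 175 kb to 285 kb, with a median change of 45 kb, and 85.0% were longer. The 40 stripes with Rad21 in neither list went from 220 kb to 275 kb, with a median change of 15 kb, and 57.5% were longer. Strength changed by 0.39, 0.10 and -0.01 in the median of these 3 sets. The median shift of the tip away from the anchor was 60, 35 and -10 kb. Anchor width moved with these sets as well: late-G1 medians were 30, 20 and 10 kb. Its part in the change of length was not tested.

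**Figure D4:**
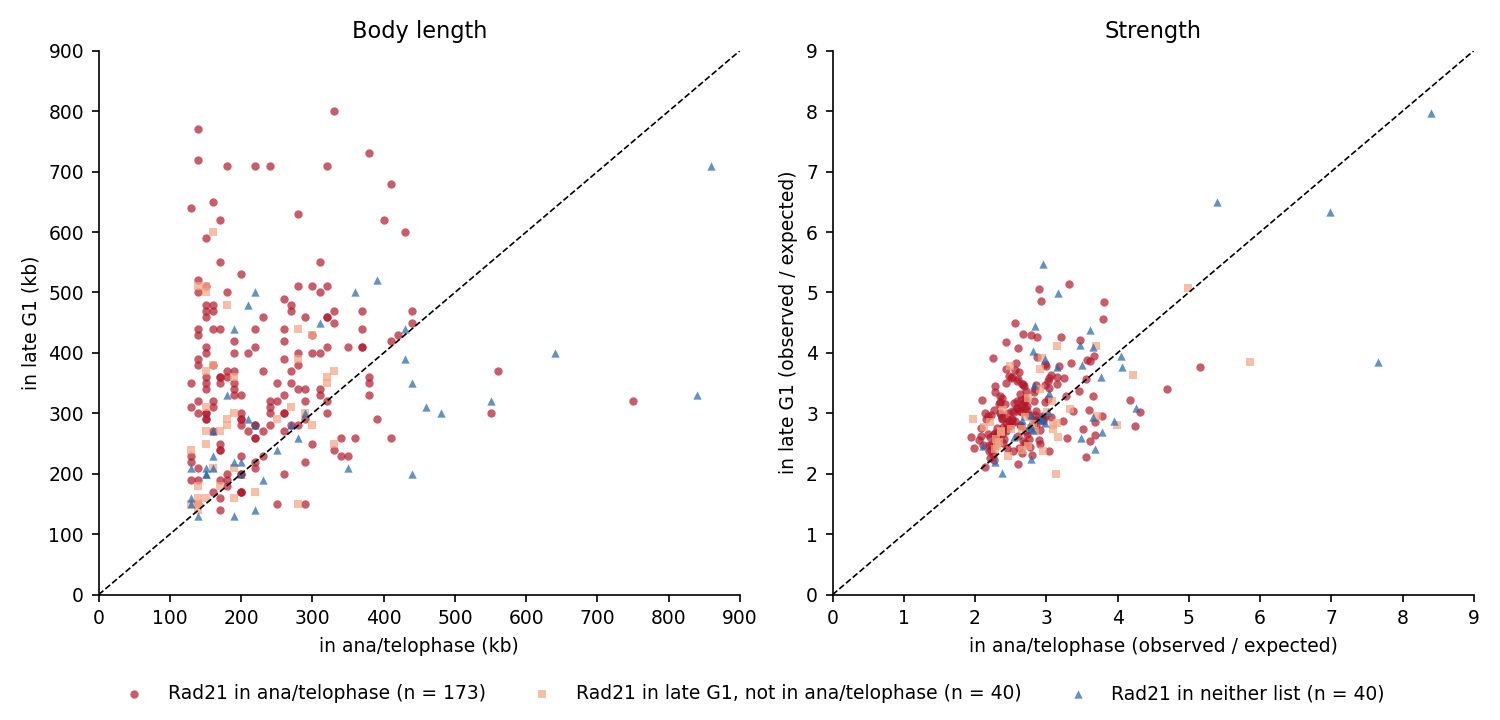
Body length (left, kb) and strength (right, ratio of observed to expected contacts) of each of the 253 early-anchored stripes in ana/telophase (x axes) and late G1 (y axes); the dashed line marks equal values. Points above the line grew; 197 of 253 do so for length and 175 for strength, and the stripes with Rad21 in neither list (blue triangles, n = 40) include the strongest late-G1 stripe and several of those that shortened most.

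Of the 5 early-anchored stripes with the highest late-G1 strength, 1 had a late-G1 Rad21 peak at its anchor, against 84.2% of all 253. The highest late-G1 strength, 7.97, was that of a horizontal stripe on chromosome 1 with its anchor from 16080001 to 16100000 and a body of 150 kb that started 450 kb from the anchor. Its strength was 8.40 in ana/telophase, it had no partner in early or mid G1, and its anchor held CTCF from ana/telophase on but no Rad21 peak in any list. Next came a vertical stripe on chromosome 9 with its anchor from 115210001 to 115220000, whose strength was 2.84 in pro-metaphase, 5.39 in ana/telophase and 6.49 in late G1. No CTCF peak was listed there at any stage, although a late-G1 one lay within 10 kb, and Rad21 only in mid G1, at percentile 3.84 of its list. The observed contact sums of these late-G1 stripes were 267 and 251, against a median of 964 over the early-anchored stripes, so their ratios rest on few contacts. The stripe among the 5 with Rad21 at its anchor in every list lay on chromosome 19 with its anchor from 44630001 to 44660000. Its strength rose from 3.32 in ana/telophase to 5.14 in late G1, its late-G1 Rad21 peak was at percentile 100.0 of its list and its late-G1 CTCF peak at percentile 99.9.

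Of the 253 stripes, 13 also had an anchor in pro-metaphase, against 10 of the 1492 others. In 8 of the 13 the body was shorter in late G1 than in pro-metaphase, with medians of 350 and 300 kb, while strength was higher in late G1 in 8. CTCF was listed in pro-metaphase at 8 of these anchors. Rad21 was listed at none of them in pro-metaphase and at 8 in ana/telophase and in late G1. A domain boundary lay at 7 of the 13 in pro-metaphase and at 2 in late G1.

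Loops ran from early anchors into the stripe body sooner than from other anchors. Loops and boundaries were called on the same Hi-C libraries as the stripes, so their ana/telophase and late-G1 shares are not independent of the selection and are given as a description. A loop was counted where 1 of its anchors overlapped the stripe anchor and the other overlapped the late-G1 body. In pro-metaphase, when 84 loops were listed in all, 0 of 253 stripes had one. In ana/telophase 44 did (17.4%, 12.9 to 22.6), against 6.37% of the other stripes, a difference of 11.0 points (6.64 to 16.3). In early G1 188 did (74.3%, 68.5 to 79.6), against 65.3% of the others, a difference of 8.96 points (2.77 to 14.5). The shares then met: 200 stripes (79.1%) against 79.9% in mid G1, and 206 (81.4%, 76.1 to 86.0) against 82.6% in late G1, with a late-G1 difference of -1.15 points (-6.71 to 3.60).

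By late G1 more of the early-anchored stripes held several loops, while the median was 2 loops per stripe in both groups. They had 516 late-G1 loops from anchor to body, a mean of 2.04 per stripe, against 1.79 for the other stripes, and 36.8% had 3 or more, against 24.9%. Anchor width moved with the number of loops. Averaged within classes of anchor width, the difference in the mean was 0.071 loops per stripe, against 0.245 over all widths, and the difference in the share with 3 or more was 7.55 points, against 11.8. At anchors of 10 kb the mean was lower in early-anchored stripes (1.02 against 1.30), and within each width class the interval of the difference in the share with 3 or more includes 0. Of the 516 loops, 11.8% (9.16 to 14.9) were first listed in ana/telophase and 64.9% in early G1, while 13.6% and 9.69% were new in mid and late G1. Among the loops of the other stripes 7.10% (6.15 to 8.13) were first listed in ana/telophase and 20.9% in mid G1. The far anchor of the loop held both CTCF and Rad21 in 67.1% of these late-G1 loops (62.8 to 71.1), against 70.8% (69.1 to 72.6) at the other stripes.

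Listed loops reached farther along the stripe as G1 went on, at early-anchored and other stripes alike. Counting every loop from the anchor on the side of the body up to the tip, the farthest loop of a stripe lay at a median distance of 170, 275, 310 and 315 kb in the 4 stages from ana/telophase on. These distances were 33.65%, 57.4%, 64.0% and 64.9% of the distance to the late-G1 tip, so the farthest loop usually fell short of the tip. At the other stripes the percentages were 31.5%, 52.5%, 63.1% and 63.5%. Only stripes with a loop count here, 63 early-anchored ones in ana/telophase and 230 in late G1, so the stages cover different stripes. The loop lists grew from 908 to 11340 loops between these stages, and the part of list length was not tested. In late G1, 86.6% (84.0 to 88.9) of the loops from early anchors ran towards the body, against 91.8% (90.9 to 92.7) at the other stripes. These intervals, and those over loops in the paragraph above, count each loop singly, although loops that share an anchor are not independent. Stripes of the opposite direction shared the anchor in 19 early-anchored cases (7.51%, 4.58 to 11.5), against 2.88% (2.09 to 3.86).

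The stripe with most late-G1 loops was a horizontal one on chromosome 17 with its anchor from 84260001 to 84300000. It had 0 loops to the body in ana/telophase and then 3, 6 and 9 over the G1 stages, while its body grew from 320 kb to 710 kb. Its anchor had 3 CTCF and 3 Rad21 peaks in late G1 and a boundary in all 5 stages. A vertical stripe on chromosome 2 with its anchor from 103810001 to 103870000 had 1 loop already in ana/telophase, then 3, 5 and 6. Its body grew from 370 kb in ana/telophase to 470 kb in late G1, and its strength from 2.60 to 4.08.

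**Figure D5:**
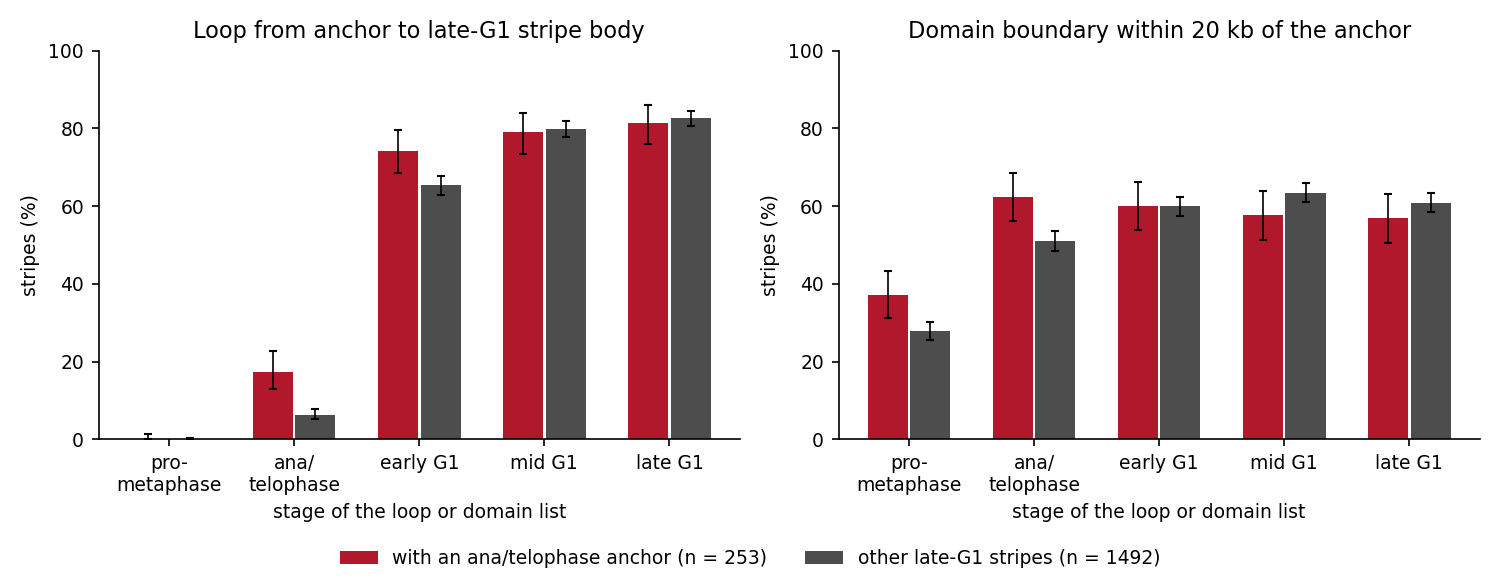
Share of stripes (y axes, percent) with a loop from the anchor to the late-G1 body (left) and with a domain boundary within 20 kb of the late-G1 anchor (right) in the list of each stage (x axis), for 253 early-anchored stripes (red) and 1492 other stripes (grey). Whiskers are exact 95% binomial intervals; red is above grey in ana/telophase in both panels (17.4% against 6.37% for loops, 62.5% against 51.1% for boundaries), and the shares meet by mid G1 for loops and by early G1 for boundaries.

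Boundaries stood at early anchors ahead of the other anchors and did not gain afterwards. A boundary was the start or end of a listed domain, counted within 20 kb of the anchor. In pro-metaphase 94 early-anchored stripes had one (37.2%, 31.2 to 43.4), against 27.9% of the others, a difference of 9.27 points (3.10 to 15.8). Among horizontal stripes alone this difference was 5.42 points (-3.18 to 14.8), an interval that includes 0. In ana/telophase 158 did (62.5%, 56.2 to 68.4), against 51.1%, a difference of 11.4 points (4.76 to 17.7). In early G1 152 did (60.1%), against 60.0%. Mid G1 followed with 146 (57.7%) against 63.5%, and late G1 with 144 (56.9%, 50.6 to 63.1) against 60.9%, a late-G1 difference of -4.01 points (-10.6 to 2.45). The early-anchored stripes thus reached their highest share in ana/telophase and the others in mid G1.

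Domains ended or started at early anchors on both sides. A domain that started at the anchor and extended on the side of the body was listed in pro-metaphase for 31.2% (25.6 to 37.3) of early-anchored stripes, against 19.8% (17.8 to 21.9) of the others, a difference of 11.5 points (5.67 to 17.7). On the side away from the body the shares in pro-metaphase were 22.1% and 17.9%, a difference of 4.24 points (-0.859 to 10.1). In ana/telophase the differences were of similar size on the side of the body (52.2% against 43.0%, 9.21 points, 2.57 to 15.8) and away from it (44.7% against 36.4%, 8.27 points, 1.78 to 14.9). Whether the sides differ was not tested. Of the 144 early anchors with a late-G1 boundary, 85.4% (78.6 to 90.7) also had one in ana/telophase, against 69.6% (66.5 to 72.6) at the other stripes. Followed forward in time, the early share was the lower one, and no interval of the difference was computed. The separate intervals overlap, which does not show that the shares are alike. Of early anchors with an ana/telophase boundary, 77.85% (70.6 to 84.1) had one in late G1, against 83.1% (80.2 to 85.7). From pro-metaphase to late G1 the shares were 62.8% (52.2 to 72.5) and 73.3% (68.8 to 77.5). Whether both stages listed the same boundary was not tested. A boundary was listed in all 5 stages at 51 early anchors (20.2%) and in none at 52 (20.6%). In late G1, 133 early-anchored stripes had a domain running from the anchor along the body. Its far end lay within 50 kb of the tip in 27.8% of them, and it was shorter than the stripe by more than that in 54.1%. Among the 837 other stripes with such a domain the shares were 20.9% and 61.65%. Boundaries were listed in late G1 at 59.2% (52.2 to 65.8) of the 213 early anchors with late-G1 Rad21 and at 45.0% (29.3 to 61.5) of the 40 without. At the other stripes these shares were 64.2% (61.5 to 66.9) and 42.8% (36.3 to 49.5).

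The bodies of early-anchored stripes were rich in CTCF sites. In late G1 the median density was 3.43 CTCF peaks per 100 kb of body (3.08 to 3.70), against 2.41 (2.31 to 2.50) in the other stripes and 1.27 over all bins of the chromosomes. In pro-metaphase the median was 1.05 (0.909 to 1.20), against 0.732 (0.667 to 0.769). Rad21 had a late-G1 median of 1.96 peaks per 100 kb (1.72 to 2.16), against 1.51 (1.43 to 1.57), and in ana/telophase 0.794 (0.682 to 0.976) against 0.556 (0.526 to 0.588). A late-G1 CTCF peak lay within 20 kb of the tip in 73.1% of early-anchored stripes, against 66.6% of the others, a difference of 6.57 points (0.330 to 12.2). For Rad21 at the tip the shares were 54.5% and 52.1%, a difference of 2.40 points (-4.25 to 8.94).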

How the data were processed

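Peak, domain, loop and stripe lists were used as the authors deposited them; the stripes and all lists set beside them were chosen with earlier results of these data known. ChIP-seq peak lists, 1 for each of 2 proteins in 6 groups, give for each peak a fold enrichment (a ratio), a −log10 p and a −log10 q that are the authors' deposited values; replicates were merged and downsampled, per the file headers and peak names. Bowtie 0.12.7, SAMtools 1.7, bedtools 2.27.1, MACS2 2.1.0 (ChIP-seq), Bowtie2 and HiC-Pro (Hi-C) and build mm9 are named in the submitters' processing notes. Not given in the sources used here are the callers of domains, loops and stripes and the normalization of contacts. Loops carry a p-value, per the file headers. Stripes carry an observed contact signal summed over the body and the strength, a ratio of this sum to an expected one, per the file headers; body length was computed from positions. Since bodies begin at least 80 kb from the anchor in these lists, contacts nearer to the anchor are not part of a stripe.

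A partner in another list was the stripe of the same direction with the largest anchor overlap. A peak was at an anchor if it shared at least 1 bp with it. Regions were named by rule: the 5 stripes ranked first by late-G1 strength, by length, by gain, by loss, by number of loops, by strength with a pro-metaphase anchor and by strength with neither protein, of which a part, picked after their values were seen, is described; the overlapping horizontal stripe on chromosome 11 is in the sixth set. Python 3.11.15, NumPy 2.4.6, pandas 2.3.3, SciPy 1.17.1, statsmodels 0.14.6 and Matplotlib 3.10.9 were used. The interval functions passed 10 of 10 tests on simulated data, in part against bedtools 2.31.1. Alternatives covered matching, peak and loop thresholds, distances, direction, length and strength; anchor width (also for loop number), widened anchors at the stripes with neither protein, chromosome 1 and the stripes without a late-G1 partner were added after seeing the data. Lists pool replicates, so depth per sample is unknown and no p-value was computed. Gene annotation was not used here.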

Additional observations from a re-analysis of the deposited data

How the results depend on the processing

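Of 147 alternative values for 31 results, 119 stayed within the interval of the value reported. None reversed a difference whose interval excluded 0, with anchor width classes counted only as their average. Within single classes the pro-metaphase CTCF difference did change sign, to -5.05 points at 10 kb and -2.21 at 20 kb, with intervals that include 0. Requiring identical anchors left 74 of the 253 stripes. Widening anchors by 10 kb raised late-G1 CTCF to 97.6% of early-anchored and 96.3% of other stripes, ana/telophase CTCF to 96.4% of early-anchored ones, late-G1 Rad21 to 91.7% and 94.6%, and ana/telophase Rad21 to 76.3% and 74.8%, and left 6 of the 22 early anchors with neither protein in late G1. Asynchronous peaks gave Rad21 shares of 79.1% and 82.2%, and the strongest late-G1 Rad21 peaks, as many as in ana/telophase, 74.7% and 74.6%. With a fold enrichment of at least 5, ana/telophase Rad21 was at 61.3% and 58.2%, and with a −log10 q of at least 5 at 62.7% of the other stripes. Using the highest pixel, late-G1 loops were at 73.9% and 72.9%. Late-G1 boundaries were at 49.4% and 50.1% within 10 kb, at 66.8% and 71.0% within 40 kb, at 35.6% and 32.4% from outermost domains, and at 56.1% of the other stripes from domains on the side of the body. The CTCF difference in ana/telophase was 11.3 points for horizontal and 1.24 for vertical stripes, and in late G1 7.60 for horizontal ones. Without chromosome 1 the interval of the pro-metaphase Rad21 difference (-1.99 to 7.39 points) includes 0. Of 12 differences between early-anchored and other stripes, 10 kept their sign in all settings; the exceptions were Rad21 in ana/telophase within anchor width classes (-1.05 points) and late-G1 loops for horizontal stripes (0.0764 points), both with main intervals that include 0. Bodies of at least 100 kb, the longest partner, and stripes with 1 partner left the stripes as they were. No body was shorter than 130 kb and the match was 1 to 1, so these settings could not move a value. They are counted among the 119. No paired analysis was possible because each list pools its replicates, and leaving out replicates was not run for the same reason. The number of contacts and peaks called limits every share.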

Other observations

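Early anchors with neither protein listed in late G1 mostly had a peak nearby. Of the 22 early-anchored stripes with neither CTCF nor Rad21 listed in late G1, 18 had no peak of either protein in any of the 12 lists, and 14 had an anchor of 10 kb. Within 10 kb of the anchor, however, 16 of the 22 had a late-G1 CTCF peak and 13 a late-G1 Rad21 peak, and 5 had no peak of either protein in any list. A late-G1 loop ran from the anchor to the body in 12 of the 22, and a late-G1 boundary lay at 10. Such counts were not made for the 182 other stripes with neither protein, so nothing here is particular to early anchors. Over all other anchors, widening by 10 kb raised the late-G1 CTCF share from 87.3% to 96.3%, against 91.3% to 97.6% at early anchors. The median body length of the 22 was 225 kb in ana/telophase and 270 kb in late G1, with 12 of 22 longer in late G1. The median strength of the 22 was 2.96 and 2.88. A horizontal stripe of this set on chromosome 10, with its anchor from 118290001 to 118310000, was 160, 230, 200 and 230 kb long in the 4 later stages with strengths of 3.16, 3.27, 4.17 and 4.99. It had 1 loop to the body and a boundary in each of the 3 G1 stages, and no peak of either protein at the anchor or within 10 kb at any stage. A horizontal stripe on chromosome 7 with its anchor from 13060001 to 13080000, also without any peak within 10 kb, had strengths of 2.81, 3.98, 7.36 and 4.03.

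Within anchors of at least 20 kb, the strongest late-G1 CTCF peak lay in the part of the anchor that faces the body in 48.9% (41.4 to 56.4) of early-anchored stripes and 49.5% (46.1 to 52.9) of the others. For Rad21 the shares were 53.4% (45.7 to 61.0) and 51.8% (48.4 to 55.2). At this bin size no preference of the peak for the body side was detectable.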
